A study of Physcomitrium patens with 10 samples.

Results

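Levels of microRNAs (miRNAs) in fully rehydrated gametophores (FRE) were set against those in hydrated gametophores (HD) of the moss Physcomitrium patens. Gametophores are the leafy shoots of the moss, and here they were grown on BCD medium, a mineral medium for moss culture, before the water treatments. By their titles, 4 of the study's 10 samples belong to this comparison, 2 of HD and 2 of FRE, and the other 6 are 2 each of mild dehydration (MDH), severe dehydration or desiccation (SDH) and partial rehydration (PRE). The labels describe HD plants as hydrated and FRE plants as fully rehydrated, and name no other difference between them. The sources used here give no water content, duration, plant age or strain. The treatment field of the labels disagrees with the title for both FRE samples and for neither HD sample. For 1 FRE sample it names severe dehydration and for the other partial rehydration, so the FRE group rests on the titles and on the column name.

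The deposited tables hold 1 value per state for 280 mature miRNA names from 108 families, in RPM (reads per 1000000). The 2 libraries of a state had already been combined, so no difference below has a replicate check, no SD or p-value can be given, and the depth behind the values is unknown. The comparison covers the 209 of 280 names that reached 3 RPM in the higher of HD and FRE. Another 57 names lay above 0 but under that level, and 14 were listed at 0 in both states. The difference is log2((FRE + 1)/(HD + 1)), with 1 RPM added to each level, and a name is called higher or lower where this passes 2-fold. Just inside the minimum lay miR1042-3p at 3.1 RPM in HD and miR1031a at 3.2 RPM in FRE, both past 2-fold, and just outside it miR1036-3p at 2.9 RPM in HD and 2.1 RPM in FRE. Printed folds are plain ratios of RPM and are left out where a level lay under 1 RPM. The tables list miRNAs only, so the tissue label could not be set against marker genes. In such bulk samples, fewer cells of a type and less RNA per cell cannot be told apart.

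A plant miRNA is cut from a hairpin precursor by a Dicer-like enzyme, and the strand that is kept guides an Argonaute protein to messenger RNAs with a near-complementary site, which are then cut or less translated. The hairpin has a 5p and a 3p arm, and the arm that is kept less often is called the star or less abundant arm. Several families are shared by mosses and flowering plants and act on transcription factors of development, while many others are known from mosses only. Physcomitrium tolerates strong water loss, and its leafy shoots can resume growth on rewetting.

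Most miRNAs were close to the hydrated level after full rehydration, and a minority stood far from it in both directions. Of the 209 names 32 were at least 2-fold higher in FRE (15.3%) and 25 at least 2-fold lower (12%). The higher names came from 12 families and the lower ones from 16, and 4-fold was passed by 7 higher and 8 lower names. The other 152 names stayed under 2-fold, among them 115 within 1.5-fold. The median log2 difference was -0.10, with quartiles of -0.52 and 0.50. The lower and the higher names differed in abundance: lower names had a median level of 620 RPM in HD against 70.9 RPM in FRE, and higher names of 9.6 and 27.1 RPM. Because the names were called from these same levels, part of the gap in HD follows from the calls. Of the 46 names with a mean of HD and FRE of at least 1000 RPM, 1 was higher and 5 were lower, while of the 28 names with a mean under 10 RPM 9 were higher and 2 lower. Near-identical copies account for 18 of the 32 higher names and 2 of the 25 lower ones, and reads shared between copies cannot be given to one of them.

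**Figure D1:**
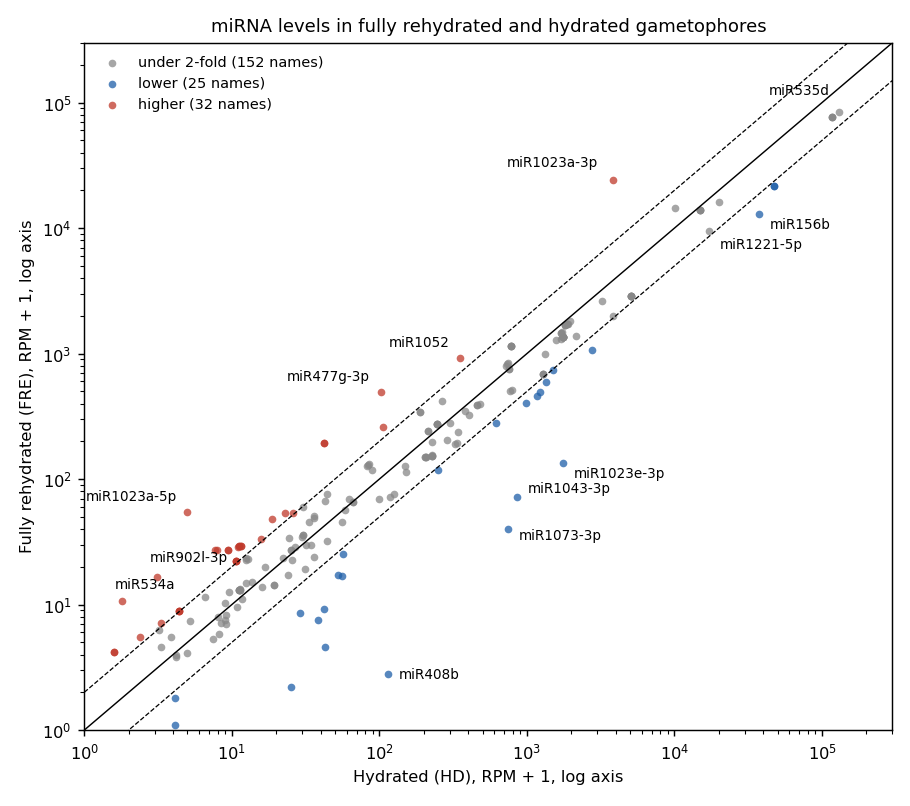
Level of each of the 209 miRNA names in hydrated gametophores (x axis) and fully rehydrated ones (y axis), as RPM + 1 on log axes, 1 deposited value per state. The solid line marks equal levels and the dashed lines 2-fold. The 32 higher names lie mostly at the scarce end apart from miR1023a-3p, and the 25 lower names include the abundant miR156b at 37601 RPM in HD against 12903 RPM in FRE.

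The 280 names together held 831487 RPM in HD and 571803 RPM in FRE, 68.8% of HD. The sums were 503544 RPM in MDH, 629248 RPM in SDH and 407334 RPM in PRE, so that FRE lay above PRE and below SDH. Of the 259683 RPM by which the sum was smaller in FRE, the miR535 family made up 164782 RPM and the miR156 family 75714 RPM. Without these families the sums were 218349 RPM in HD against 199162 RPM in FRE. That remainder includes miR1023, which rose from 5928.9 RPM in HD to 24645.5 RPM in FRE and so offsets part of the decrease of other families. These sums and all shares and family sums below count each near-identical copy at its full value. With each set of copies counted once, the sum was 450261 RPM in HD and 311855 RPM in FRE (69.3% of HD), of which miR535 held 54.8% and 51.9% and miR156 held 18.8% and 11.1%, and miR535 was then smaller by 84725 RPM. Rescaling each state to its listed miRNA ended 13 of the 25 lower calls and added 21 higher ones.

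When members were summed by family, 79 families reached 3 RPM, of which 12 were at least 2-fold lower in FRE (15.2%) and 7 at least 2-fold higher (8.86%). Another 45 of the 79 lay within 1.5-fold of HD. The lower families were miR408, miR1073, miR1043, miR1072, miR1042, miR1077, miR900, miR390, miR156, miR1039, miR1065 and miR1211, and the higher ones were miR534, miR1023, miR1031, miR1052, miR903, miR1067 and miR1219. Of these 19, 15 reached 10 RPM. The levels of miR1042, miR534, miR1031 and miR1067 were under 10 RPM in both states. With each state rescaled to its summed miRNA, miR408, miR1073, miR1043, miR1072 and miR1077 remained at least 2-fold lower. miR1042 kept a log2 difference of -1.82 but lay under the 3 RPM minimum there, and the other 6 lower families no longer passed 2-fold. The same rescaling brought 10 more families past 2-fold on the higher side, miR319, miR477, miR537, miR1024, miR1037, miR1046, miR1060, miR1215, miR1218 and miR2080.

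**Figure D2:**
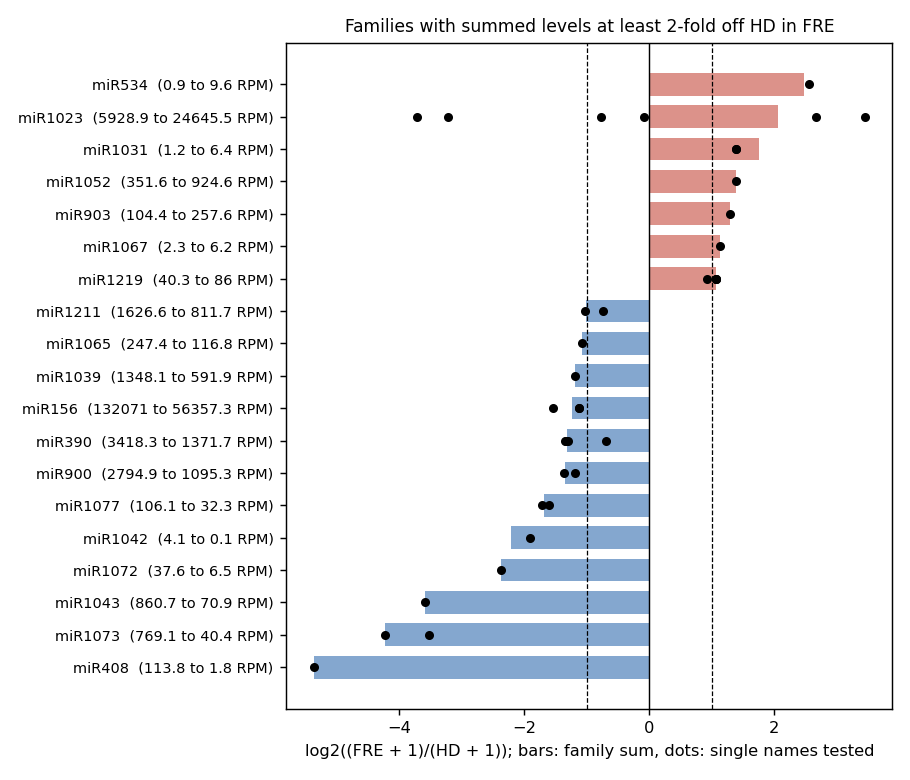
The 19 families whose summed level was at least 2-fold lower (blue) or higher (red) in FRE than in HD. Bars give log2((FRE + 1)/(HD + 1)) of the family sum, dots give the single names tested, and the dashed lines mark 2-fold. The dots of miR1023 reach from -3.71 for miR1023e-3p to 3.45 for miR1023a-5p, so its bar does not describe its members.

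Among conserved families, miR408 was furthest below the hydrated level. In flowering plants this family acts on mRNAs of copper proteins such as plantacyanin and laccases, and it accumulates when copper is short. miR408b was at 114 RPM in HD, listed at 0 in MDH, and at 0.1 RPM in SDH, 5.2 RPM in PRE and 1.8 RPM in FRE. The hydrated value is the high one, and FRE was 63.2-fold below it (log2 difference -5.36) and also below PRE. The second name of the family, miR408, was listed at 0 in all 5 states.

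The miR156 family acts on mRNAs of SPL transcription factors and in this moss favours the step from filamentous growth to leafy shoots. All 3 of its names were lower in FRE. miR156b was at 37601 RPM in HD, 19665 RPM in MDH, 26391 RPM in SDH, 13734 RPM in PRE and 12903 RPM in FRE, 2.91-fold below HD and the lowest of the 5 states. The near-identical miR156a and miR156c were at 47234 and 47237 RPM in HD and both close to 21727 RPM in FRE, 2.17-fold lower, a little above their PRE level of 19250 RPM. As a share of all listed miRNA, the family held 15.9% in HD and 9.86% in FRE. The log2 difference of miR156a was -1.12 as deposited, -1.0 with median-of-ratios scaling and -0.58 when each state was rescaled to its summed miRNA, so its call depends on the scaling. That of miR156b stayed at or past 2-fold under both, at -1.42 and -1.0.

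miR529, whose targets are SPL genes as well, had members on both sides. miR529d was at 620 RPM in HD, 506 RPM in MDH, 405 RPM in SDH, 266 RPM in PRE and 280.2 RPM in FRE, a log2 difference of -1.14 from HD that became -0.60 when states were rescaled to summed miRNA. The scarcer miR529g was at 41.3 RPM in HD against 8.3 RPM in FRE, 4.98-fold lower, after 13.5 RPM in MDH and 15.8 RPM in SDH. The copies miR529e and miR529f were higher, at 8.4 RPM in HD, 107 RPM in PRE and 26.0 RPM in FRE. The abundant miR529a, miR529b and miR529c carried most of the family, with miR529a at 1705 RPM in HD against 1468 RPM in FRE, and the summed family differed by a log2 value of only -0.29.

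miR390 cuts TAS3 transcripts, which then yield small interfering RNAs that act on mRNAs of auxin response factors. Of its 4 names 3 were lower in FRE, and they did not reach that level along the same path. miR390a was at 1232 RPM in HD, 880.2 RPM in MDH, 1253 RPM in SDH, 525 RPM in PRE and 492 RPM in FRE, so it was near HD in the desiccated state and low in both rewetted states. miR390b had the same order of states, with 1171 RPM in HD, 1217 RPM in SDH and 462 RPM in FRE. miR390c was at 985.5 RPM in HD, 179 RPM in MDH, 294 RPM in SDH, 161 RPM in PRE and 400 RPM in FRE, and so lay above its dried and partially rewetted levels. Its star arm was at 30.1 RPM in HD against 18.2 RPM in FRE, under 2-fold. Summed, miR390 was 2.49-fold below HD, a log2 difference of -1.32 that became -0.78 when states were rescaled to summed miRNA.

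The remaining lower families are known from mosses, and for most of them no target is named here. miR1073-3p was at 745 RPM in HD, 15.1 RPM in MDH, 55.6 RPM in SDH, 67.7 RPM in PRE and 39.2 RPM in FRE, 19.0-fold below HD. Its other arm, miR1073-5p, was at 24.2 RPM in HD against 1.2 RPM in FRE. Neither arm was above 10% of its hydrated level in FRE: they stood at 5.26% and 4.96% of it.

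miR1043-3p showed a level in FRE well under that of the state before it. It was at 859.5 RPM in HD, 6.9 RPM in MDH, 18.4 RPM in SDH, 583 RPM in PRE and 70.9 RPM in FRE. HD and PRE were the high states, and FRE was 12.1-fold below HD and 8.22-fold below PRE. HD and PRE were the high states of miR2083-3p too, with 28.0 RPM in HD, 4.0 RPM in MDH, 3.7 RPM in SDH, 24.6 RPM in PRE and 7.5 RPM in FRE. Both names were thus nearer to the hydrated level at partial than at full rehydration.

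Other names had a higher level in FRE than in PRE and were still low. miR1072 was at 37.6 RPM in HD, 0.8 RPM in MDH, 2.4 RPM in SDH, 1.2 RPM in PRE and 6.5 RPM in FRE. miR1077-3p was at 51.4 RPM in HD, 0.6 RPM in MDH, 0.1 RPM in SDH, 1.7 RPM in PRE and 16.3 RPM in FRE, 31.7% of HD. Its partner arm miR1077-5p was at 54.7 RPM in HD, 35.9 RPM in SDH, 18.4 RPM in PRE and 16 RPM in FRE, so that the arms were at like levels in HD and FRE and far apart in SDH. miR1039-3p was at 1347 RPM in HD, 397 RPM in MDH, 388 RPM in SDH, 531 RPM in PRE and 591 RPM in FRE, 2.28-fold below HD.

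miR900-5p was at 2739 RPM in HD, 908 RPM in MDH, 1892 RPM in SDH, 1057 RPM in PRE and 1071 RPM in FRE, 2.56-fold below HD, and its other arm miR900-3p was at 55.9 RPM in HD against 24.1 RPM in FRE. For miR1065 and miR1211* FRE was the lowest of the 5 states. miR1065 was at 247 RPM in HD, 171 RPM in MDH, 331 RPM in SDH, 247 RPM in PRE and 117 RPM in FRE, and miR1211* was at 1502 RPM in HD, 1172 RPM in PRE and 737 RPM in FRE. Their log2 differences of -1.08 and -1.03 lay just past 2-fold and became -0.96 and -0.91 with median-of-ratios scaling. miR1042-3p, the scarcest of the lower group, was at 3.1 RPM in HD against 0.1 RPM in FRE.

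**Figure D3:**
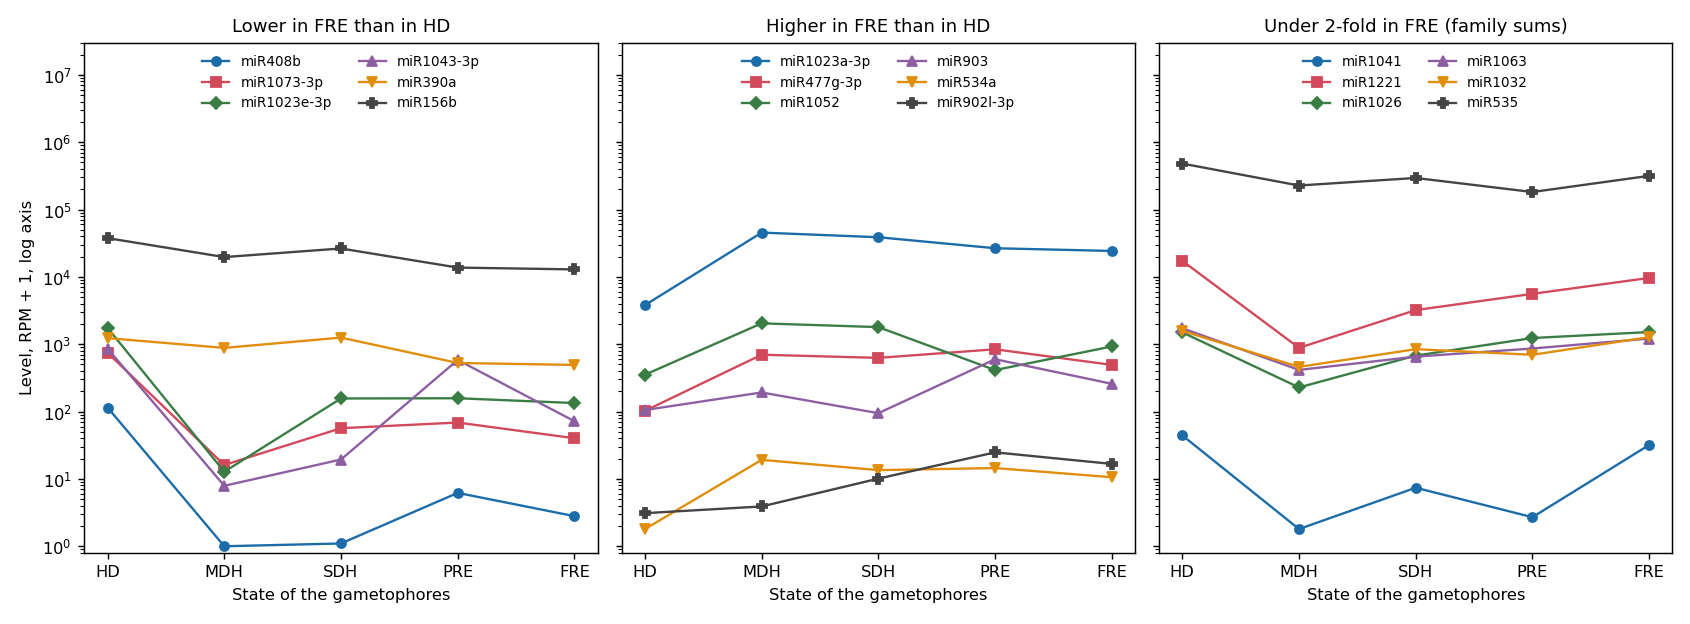
Levels (RPM + 1, log axis) in the 5 states, 1 deposited value per state, of 6 names lower in FRE than in HD (left), 6 names higher (middle) and 6 family sums under 2-fold in FRE (right). On the left miR408b ends at 1.8 RPM after 114 RPM in HD and miR1043-3p at 70.9 RPM after 583 RPM in PRE. In the middle miR1023a-3p ends at 24258 RPM after 3805 RPM in HD, and on the right miR1026 ends at 1515 RPM, next to its 1500 RPM in HD.

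Of all names, miR1023a-3p gained most RPM over HD. It was at 3805 RPM in HD, 45433 RPM in MDH, 38776 RPM in SDH, 26612 RPM in PRE and 24258 RPM in FRE, 6.38-fold above HD. HD was the sole low state, and the gain of 20453 RPM over HD exceeded the sum of all other higher names. The less abundant arm miR1023a-5p was at 4.0 RPM in HD, 55.6 RPM in MDH, 40.6 RPM in SDH, 28.2 RPM in PRE and 53.5 RPM in FRE, 13.4-fold above HD. The family's share of all listed miRNA was 0.713% in HD and 4.31% in FRE.

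The other tested members of the family were below their hydrated levels. miR1023e-3p was at 1744 RPM in HD, 11.8 RPM in MDH, 155 RPM in SDH, 157 RPM in PRE and 133 RPM in FRE, 13.1-fold below HD. miR1023c-3p was at 41.7 RPM in HD and between 1.1 and 3.8 RPM in the other 4 states, with 3.6 RPM in FRE. miR1023b-3p was at 322 RPM in HD, 84.9 RPM in MDH, 401 RPM in SDH, 282 RPM in PRE and 188 RPM in FRE, a log2 difference of -0.78. Of the 6 tested names of miR1023 2 were higher, 2 lower and 2 under 2-fold.

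In the miR477 family, 4 of 10 names were higher in FRE and none lower, beside 15.3% higher and 12% lower of all names tested. Near-identical copies are part of both the 4 and the 10. miR477g-3p was at 102 RPM in HD, 697 RPM in MDH, 626 RPM in SDH, 839.6 RPM in PRE and 493 RPM in FRE, 4.85-fold above HD but under all 3 states between. The near-identical pair miR477f and miR477g-5p went from 41.1 RPM in HD to 195 RPM in FRE, after 353 RPM in PRE, and miR477h from 22.1 to 52.8 RPM. The copies miR477a-5p, miR477b, miR477c and miR477e were near their hydrated level again, with miR477a-5p at 243 RPM in HD, 584 RPM in PRE and 275 RPM in FRE. The opposite arm miR477a-3p was at 333 RPM in HD against 194 RPM in FRE. The family sum was 1775 RPM in HD, 5288 RPM in PRE and 2638 RPM in FRE, a log2 difference of 0.57 from HD that became past 2-fold when states were rescaled to summed miRNA.

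miR534a, which acts on BLADE-ON-PETIOLE mRNAs and in this moss affects bud formation, was at 0.8 RPM in HD, 18.2 RPM in MDH, 12.5 RPM in SDH, 13.5 RPM in PRE and 9.6 RPM in FRE. Its hydrated level is about 8 on the deposited scale of 10 per RPM, so the size of its difference is poorly fixed. miR1052 was at 352 RPM in HD, 2041 RPM in MDH, 1794 RPM in SDH, 412 RPM in PRE and 925 RPM in FRE, 2.63-fold above HD and 2.24-fold above PRE. miR903 was at 104 RPM in HD, 191 RPM in MDH, 93.6 RPM in SDH, 597 RPM in PRE and 258 RPM in FRE, 2.47-fold above HD. The rewetted states were the high ones for miR903 and the dried states for miR1052. miR2080, at 29.2 RPM in HD, 263 RPM in PRE and 59.1 RPM in FRE, came just short of the 2-fold line with a log2 difference of 0.99.

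miR1219, whose targets in this moss are auxin response factor mRNAs, was the auxin-related family with a higher sum. The identical names miR1219a, miR1219b and miR1219c were at 9.6 RPM in HD, 12.8 RPM in MDH, 6.1 RPM in SDH, 10 RPM in PRE and 21.1 RPM in FRE. miR1219d was at 11.5 RPM in HD against 22.7 RPM in FRE, just under 2-fold. FRE was the highest state for all 4 names, and with 10 RPM added to each level the family sum no longer passed 2-fold (log2 difference 0.93). The scarce miR1031a and miR1031b, both at 0.6 RPM in HD against 3.2 RPM in FRE, and miR1067, at 2.3 and 6.2 RPM, complete the higher families.

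The miR902 family differed between its arms. Of its 12 tested 5p names 9 were higher in FRE and none lower, beside 15.3% higher and 12% lower of all names tested. These 5p names hold copies, and with copies counted once 4 of 6 values were higher. With 10 RPM added to each level, only miR902h-5p and miR902i-5p among the 5p names stayed past 2-fold. The summed 5p level was 136 RPM in HD, 261 RPM in MDH, 404 RPM in SDH, 294 RPM in PRE and 331 RPM in FRE, 2.43-fold above HD. Of the 10 tested 3p names 2 were higher, and the summed 3p level was 6045 RPM in HD, 3411 RPM in MDH, 5324 RPM in SDH, 3232 RPM in PRE and 5742 RPM in FRE, or 0.95 of HD. The copies miR902c-3p, miR902e-3p and miR902g-3p, at 1797 RPM in HD against 1674 RPM in FRE, made up most of the 3p level. The scarce miR902l-3p was at 2.1 RPM in HD, 2.9 RPM in MDH, 9.1 RPM in SDH, 23.8 RPM in PRE and 15.7 RPM in FRE. miR902h was higher in both arms, with miR902h-3p at 17.7 RPM in HD against 46.9 RPM in FRE and miR902h-5p at 6.9 and 26.3 RPM, and miR902i-5p was a copy of the latter.

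Over all families, 25 hairpins had both arms above the minimum level. In 6 of them both arms passed 2-fold, in the same direction each time: miR1073, miR1077 and miR900 were lower and miR1023a, miR477g and miR902h higher. In 11 hairpins 1 arm passed 2-fold and in 8 neither did. The arms lay furthest apart in miR1076, where miR1076-3p was at 116 RPM in HD against 71.1 RPM in FRE and miR1076-5p at 1.4 and 4.5 RPM, and in miR2083, where miR2083-5p was at 30.8 and 28.9 RPM beside the lower 3p arm.

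**Figure D4:**
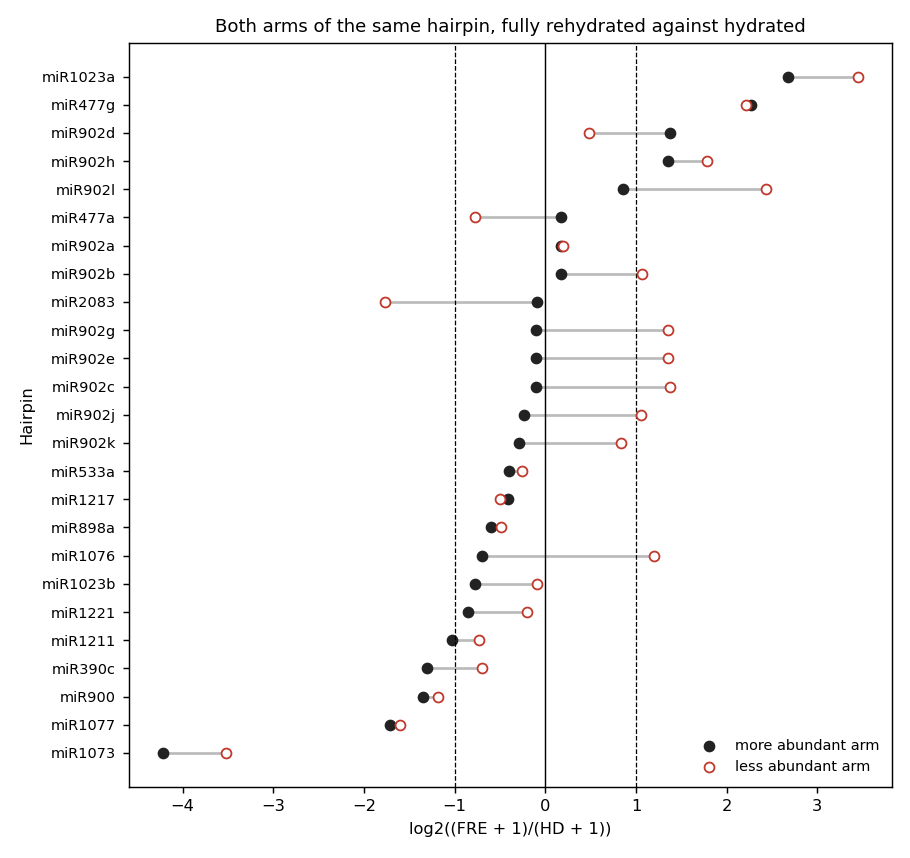
Log2((FRE + 1)/(HD + 1)) of the more abundant arm (black) and the less abundant arm (open red) of the 25 hairpins with both arms above 3 RPM in HD or FRE; dashed lines mark 2-fold. Both arms of miR1073, miR1077 and miR900 lie left of the lower line, and in miR902c, miR902e and miR902g the 5p arms lie near 1.4 while the 3p arms, which have identical values, lie at -0.10.

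Several families that stood far below HD in the dried states were under 2-fold in FRE. They are given by the size of their difference in MDH, a choice made after the values were seen, and the comparisons of MDH and of FRE with HD share the hydrated value. miR1041 was at 43.3 RPM in HD, 0.8 RPM in MDH, 6.4 RPM in SDH, 1.7 RPM in PRE and 30.9 RPM in FRE, 71.4% of HD. miR1221 summed to 17294 RPM in HD, 882 RPM in MDH, 3210 RPM in SDH, 5597 RPM in PRE and 9643 RPM in FRE, 55.8% of HD. miR1026, which acts on the mRNA of a bHLH transcription factor in this moss, summed to 1500 RPM in HD, 227 RPM in MDH, 676 RPM in SDH, 1235 RPM in PRE and 1515 RPM in FRE. From MDH on, the level of miR1221 and that of miR1026 were higher in each state than in the state before, and miR1026 was at 101% of HD. The 8 names of miR1063 summed to 1725 RPM in HD, 414 RPM in MDH and 1211 RPM in FRE, and miR1032 was at 1575, 460 and 1273 RPM.

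The most abundant family, miR535, remained under the hydrated level without passing 2-fold. Its 4 names, of which miR535a, miR535b and miR535c are copies, summed to 481066 RPM in HD, 227141 RPM in MDH, 294196 RPM in SDH, 181887 RPM in PRE and 316284 RPM in FRE, 65.7% of HD. The family held 57.9% of the listed miRNA in HD and 55.3% in FRE, against 45.1% in MDH and 44.7% in PRE. Its log2 difference of -0.61 was -0.06 after rescaling to summed miRNA.

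Further families with known targets or high levels stayed under 2-fold. The 13 names of miR166, which acts on HD-ZIP III mRNAs, summed to 22774 RPM in HD against 16784 RPM in FRE, and the copies miR166j, miR166k and miR166l among them had log2 differences of -0.90. miR160, which acts on auxin response factors, summed to 119 RPM in HD against 133 RPM in FRE. miR536 stood at 59444 and 55566 RPM and miR538 at 5641 and 5144 RPM. In the list for small RNA machinery, miR904a, which acts on the AGO1 mRNA of this moss, was at 740.2 RPM in HD, 1737 RPM in PRE and 839 RPM in FRE. On the same list, miR1047-3p was at 8.0 RPM in HD against 6.5 RPM in FRE.

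Of the 67 families with at least 10 RPM in HD or FRE, FRE was the highest of the 5 states in 9 and the lowest in 9. HD was the highest in 27. Several of the ranks of FRE were near-ties, as with miR1026, 1.01-fold above the next state, and miR1214, 1.01-fold below it. Among the lowest, miR1065 stood furthest from the next state, at 1.46-fold. Among the highest this was miR1219, at 2.04-fold. Among the families highest in FRE was miR319, which in flowering plants acts on TCP mRNAs. Its names without a star, miR319a to miR319e, lay between 34.9 and 84.0 RPM in HD and between 48.4 and 129.8 RPM in FRE. Most of the family's level came from miR319d.2*, a star arm by its name. This arm was at 10045 RPM in HD, 6594 RPM in MDH, 6112 RPM in SDH, 3572 RPM in PRE and 14558 RPM in FRE. Its level in FRE was 1.45-fold above HD and 4.08-fold above PRE. miR1024 was at 374 RPM in HD, 309 RPM in MDH, 337 RPM in SDH, 299.6 RPM in PRE and 684 RPM in FRE. miR1215 was at 43.0 RPM in HD against 75.1 RPM in FRE, and miR1218 at 41.8 and 65.5 RPM. None of these 4 families passed 2-fold over HD, and only with states rescaled to summed miRNA did they do so.

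By the lists of families, 6 of 65 names of families conserved in land plants were higher and 9 lower (median log2 difference -0.22), beside 15.3% and 12% of all names tested and their median of -0.10. Summed by family, none of 11 conserved families was higher and 3 were lower, miR408, miR156 and miR390. Outside them 26 of 144 names were higher and 16 lower (median -0.09), and 7 and 9 of 68 families. Of 16 auxin-related names 3 were higher, the identical miR1219 names, and 3 lower, of miR390 (median 0.08). Of 36 names of developmental regulators 3 were higher, miR534a and 2 of miR529, and 5 lower, of miR156 and miR529 (median -0.37). The nutrient and copper list had 1 tested name, miR408b (-5.36). None of 3 names of the small RNA machinery passed 2-fold (median 0.18). Of the 8 names linked to stress in flowering plants, miR408b was lower and the 7 of miR319 stayed under 2-fold (median 0.51). Among 29 tested names that end in a star or were the less abundant of their pair, 10 were higher and 5 lower (median -0.09). Most of the higher ones came from miR902. A star in the name did not always mark the less abundant arm, so both arms of miR1211 and of miR533a entered this list. The lower names include miR1211*, at 1502 RPM in HD against 125 RPM for miR1211.

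The authors' deposited table of this comparison marks 63 of 233 miRNAs, 36 higher (15.5%) and 27 lower (11.6%). All 57 names called here are among them. This overlap is no separate evidence, because both sets of calls use the same value per state. Every marked miRNA differed by at least 2-fold in the authors' deposited values, and adding 1 RPM to each level only shrinks a ratio. In the authors' deposited table the 6 other marks are miR1060 and miR2080, just under 2-fold on the scale used here, and miR1042-5p, miR1043-5p, miR1223h and miR1223i, which lay under 3 RPM. The authors' deposited p-value was under 0.05 for 177 of the 233, of which 34 differed by less than 1.2-fold. For the 2 miRNAs at 0 in FRE, the authors' deposited p equals 0.5 raised to the power of the expression value in HD, which is 10 times the RPM, within 0.1%. The same value per state enters that formula, and no spread between libraries.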

How the data were processed

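Per the labels' protocols, RNA fragments of 18 to 30 nt were enriched, given adaptors, reverse transcribed and amplified by PCR, so levels of different miRNAs compare less well than those of the same miRNA between states. How reads were aligned and counted, on which build and miRNA reference, is not given in the sources used here. The authors deposited 1 level per state in RPM, in steps of 0.1, and how the 2 libraries were combined is not stated. The hydrated values are identical in the 4 level tables, through which the states were joined. Per the file headers, the comparison table also gives a total and an expression value per state, here treated as a score, because the total is 10000000 in both states. It further holds log2 fold changes and p-values, as deposited by the authors, whose test the headers do not name. Depth is therefore unknown, and no interval was computed.

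Samples were grouped by title. Log2((RPM + 1)/(RPM + 1)) was computed with Python 3.11.15 and pandas 2.3.3 for names with at least 3 RPM in HD or FRE, and called past 2-fold, without a test. A family is every name with the same number. Names of a family whose levels agreed within 5% or 0.5 RPM in all 5 states, in chains, were taken as near-identical copies: 119 names in 41 sets. Named were the 12 largest rises and falls with at least 10 RPM, with their other arms, the most abundant name of each family past 2-fold, the 10 largest differences in RPM, and 2 names of each list. Any further name was picked with its values in view. Members, lists and settings were chosen with earlier results of these data known. Conserved families were miR536, miR535, miR529, miR477, miR408, miR395, miR390, miR319, miR171, miR167, miR166, miR160 and miR156. Auxin-related families were miR160, miR167, miR390, miR393 and miR1219, and developmental regulators miR538, miR534, miR529, miR319, miR171, miR166 and miR156. Nutrient and copper families were miR395, miR397, miR398, miR399, miR408 and miR827, small RNA machinery miR162, miR168, miR403, miR904 and miR1047, and stress-linked families miR408, miR398, miR396, miR394, miR393, miR319, miR169 and miR159. The procedure was tested on simulated data, with changes of 4-fold or more planted in 60 names of at least 30 RPM. No change near 2-fold or in scarcer names was planted, so the test does not bear on such calls.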

Additional observations from a re-analysis of the deposited data

How the results depend on the processing

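The count of higher names was the one that depended most on low levels and copies. It was 32 as reported, 11 with a pseudocount of 10 RPM, 11 with a minimum of 30 RPM and 21 with near-identical copies counted once, while the lower names stayed between 21 and 27 under every setting but one. Rescaling each state to the sum of its listed miRNA moved the median log2 difference from -0.10 to 0.42 and gave 53 higher and 12 lower names, and 17 higher and 5 lower families. Median-of-ratios scaling moved the median to 0.018 and a minimum of 30 RPM to -0.29. Higher families numbered 4 with a minimum of 10 or of 30 RPM and 3 with a pseudocount of 10 RPM, in place of 7. No called name among those named changed sign under another pseudocount or scaling. No paired analysis was possible because the columns hold 1 combined value per state, and for the same reason no replicate could be left out. Signal under a few RPM limits the scarce names, whose log2 differences depend strongly on the pseudocount. That of miR534a was 2.56 as reported and 0.86 with a pseudocount of 10 RPM. Levels well under 1 RPM are limited by the steps of 0.1 RPM as well.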
